A study of Mus musculus with 8 samples.

Results

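The 10 genes described here encode proteoglycans, hyaluronan-related proteins and glycoproteins of the embryonic heart's extracellular matrix, the material between cells. They are Has2, Vcan, Hapln1, Adamts1, Fn1, Postn, Fbn1, Dcn, Lum and Hspg2, picked by symbol from 52778 gene rows, and each stands on 1 row of a primary chromosome. RNA was sequenced from mouse heart tissue at embryonic day 11.5, which the tissue field and the design text call ventricular and the titles call only heart. The 4 knockout (cKO) libraries are labelled as cardiomyocyte-specific Rps19bp1 knockouts, with both Rps19bp1 copies floxed (Rps19bp1 fl/fl) and 1 copy of Xmlc2-Cre, a Cre recombinase active in cardiomyocytes. The 4 control libraries are labelled only as controls, so whether they carry floxed alleles or Cre is not given in the sources used here. The genotype field reads C57BL/6 WT for all 8 libraries, against the treatment field and the titles. The design text speaks of 4 biological replicates for each genotype, and whether a library came from 1 embryo or a pool is not given in the sources used here. Cre was directed to cardiomyocytes while the samples are labelled as tissue, so RNA of endocardial, epicardial, mesenchymal and blood cells can be part of each value.

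Early in heart development a hyaluronan-rich gel, the cardiac jelly, separates the myocardium from the endocardium. Hyaluronan is spun out by hyaluronan synthases, bound by the large chondroitin sulfate proteoglycan versican and locked to it by link protein, and ADAMTS proteases cut versican as the jelly is remodelled during trabeculation. In the cushions that form the valves and septa, mesenchymal cells add fibronectin, periostin, fibrillin microfibrils and small leucine-rich proteoglycans, while basement membranes hold the heparan sulfate proteoglycan perlecan. The comparison asks how the RNA of this heart tissue differs when cardiomyocytes lack Rps19bp1, whose nucleolar product is named for its binding to ribosomal protein S19.

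Values are TPM, which correct read numbers for transcript length and give every library an equal sum, so levels can be set side by side between genes. Sequencing depth cannot be read from them, and no counting error could be given. In each library 15336 to 15752 rows held at least 1 TPM. The targeted gene Rps19bp1 (chr15:80260614-80264306, GRCm38) stood at 11.8 to 19.2 TPM in cKO and at 34.7 to 44.2 TPM in control. It changed by -1.37 on the log2 scale (SE 0.127, limma adjusted p = 0.000508). Part of the labels describes extraction from cultured cortical neurons. The summed level of 16 cardiomyocyte markers lay between 56467 and 61795 TPM, and that of 12 neuronal markers between 10.01 and 19.0 TPM, with Neurod6 listed at 0 in all 8 libraries.

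Changes were tested with limma on log2(TPM + 1) over 15541 rows with a mean of at least 1 TPM, and a gene was called when its Benjamini-Hochberg adjusted p over all these rows was under 0.05. Of these rows 994 were called, which is 6.40%, with 336 higher (2.16%) and 658 lower (4.23%) in cKO. After quantile normalization the split was 383 higher and 380 lower, after median-ratio scaling 383 and 419, and after rescaling without mitochondrial and globin rows 386 and 388. The number of called rows was 400 without cKO replicate 1, 419 without cKO replicate 3, and 390, 451, 421 and 588 without control replicates 1 to 4 in turn. The median log2 change of all tested rows was -0.02.

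All 10 matrix genes passed the filter on low values, with a mean above 1 TPM in each group. Of the 10, 3 were called, all higher in cKO, namely Fbn1, Dcn and Fn1, against 2.16% of all rows called higher. The other 7 did not pass the test. The median log2 change of the 10 genes was 0.37, and it was 0.25 without control replicate 2. The groups did not overlap in 4 of the 10 genes, all higher in cKO, where 15.6% of all tested rows showed no overlap and 5.33% did so with cKO higher.

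**Figure D1:**
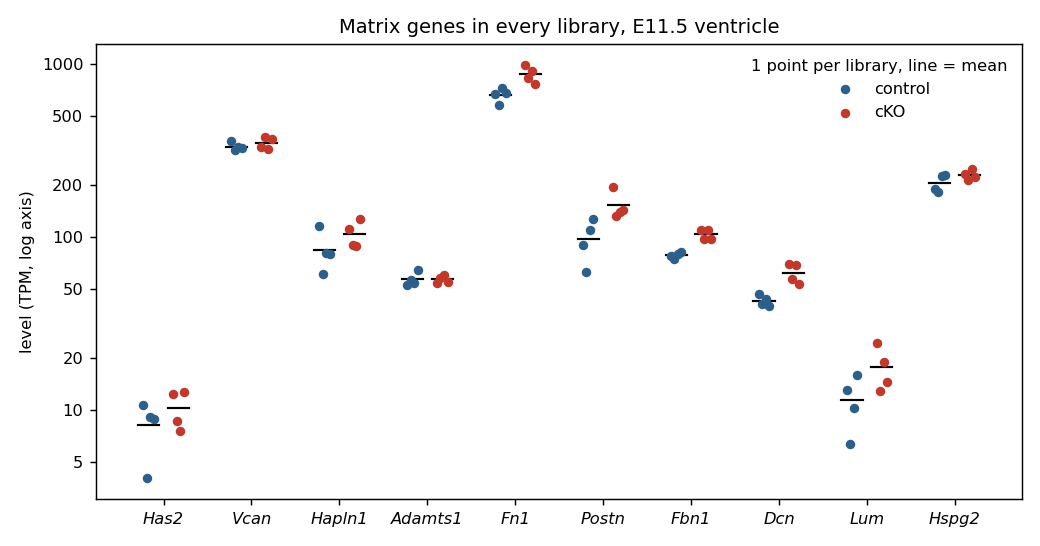
Level of each of the 10 matrix genes in TPM on a log axis, with 1 point per library (4 control and 4 cKO) and a line at each group's mean. Fn1 lies highest and Has2 lowest, and the cKO points of Fn1, Postn, Fbn1 and Dcn lie above all control points.

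By mean over the 8 libraries the order of the levels in TPM was Fn1 (770.4), Vcan (342), Hspg2 (218), Postn (125), Hapln1 (94.5), Fbn1 (91.2), Adamts1 (57.1), Dcn (52.8), Lum (14.6) and Has2 (9.29). Fn1 ranked 160 among the 15541 tested rows and Has2 ranked 9958. The ranges of neighbours in this order overlapped between Hspg2 and Postn, between Postn, Hapln1 and Fbn1, between Adamts1 and Dcn, and between Lum and Has2. Together the 10 genes took 0.186% to 0.213% of all TPM in the cKO libraries and 0.139% to 0.167% in the control libraries. The largest part of these sums was Fn1 alone, with means of 875 TPM in cKO and 666 TPM in control.

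Cell type markers moved with the groups as well. The summed level of 14 cushion mesenchyme markers was 980.1 to 1085 TPM in cKO and 774 to 909.8 TPM in control, without overlap, and 13 of the 14 had a higher mean in cKO. Without the 3 collagens on that list the sums were 396 to 509 TPM in cKO and 359 to 454 TPM in control, so the groups overlapped. Of those 11 markers 10 still had a higher mean in cKO. The exception was the abundant Prrx2, with a mean of 86.1 TPM in cKO and 116.6 TPM in control. Of the 14 markers, 3 were called higher, namely Pdgfra, Col1a2 and Col3a1. The sum of 12 epicardial markers was 567 to 686 TPM in cKO and 492 to 554 TPM in control, again without overlap. All 12 epicardial means were higher in cKO, and 6 were called. Over all tested rows 44.2% had a positive log2 change, 2.16% were called higher and 4.23% were called lower. No marker on either list was at 0 in any library. The sum of 15 endocardial and endothelial markers overlapped between the groups, at 1341 to 1550.4 TPM in cKO and 1280.1 to 1410.0 TPM in control. Of these 15, 12 had a positive log2 change and 0 were called. Of the 16 cardiomyocyte markers 1 was called, Nkx2-5, an early cardiac transcription factor, which was lower in cKO (log2 change -0.48, limma adjusted p = 0.0453). A positive log2 change was seen in 3 of these 16. Erythroid and macrophage lists held no called marker, and their sums overlapped between the groups. Of 10 erythroid markers 9 had a negative log2 change, and of 8 tested macrophage markers 7 had a positive one. The erythroid sums were 1796 to 3868 TPM in cKO and 2024 to 7356 TPM in control, and the macrophage sums 76.6 to 129.9 TPM and 72.5 to 101.1 TPM. Mitochondrial rows took 13.2% to 16.2% of all TPM in cKO and 11.4% to 12.2% in control, so these shares stood apart. In bulk tissue, more cells of a type and more RNA per cell cannot be told apart, and the part of these markers and of the mitochondrial share in the matrix results was not tested.

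**Figure D2:**
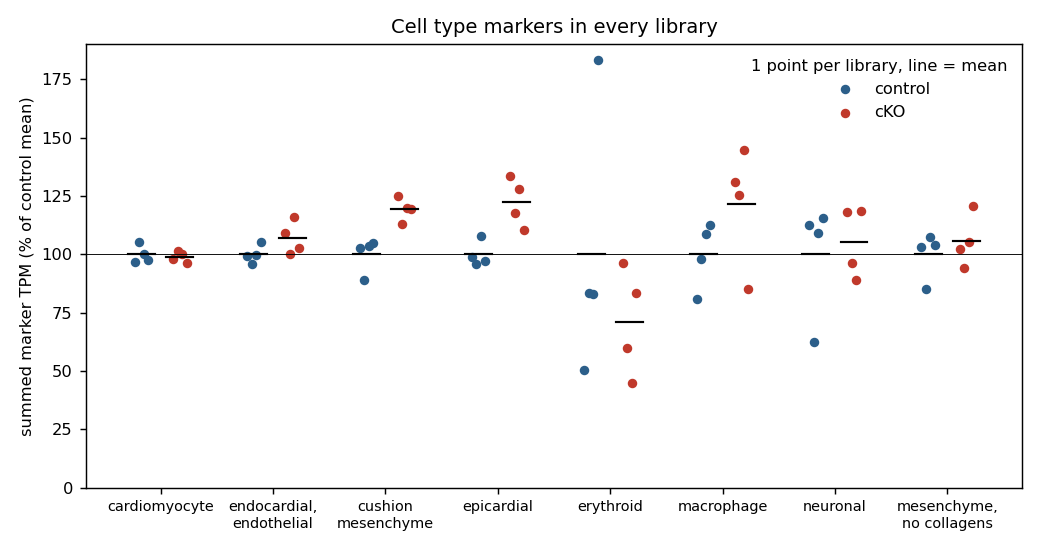
Summed TPM of each marker list in each library as a percent of the control mean, with 1 point per library and a line at the group mean. The cKO points of the cushion mesenchyme and epicardial lists lie above all control points. Once the collagens are left out of the mesenchyme list, the points of that list overlap between the groups.

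The core of the cardiac jelly is formed by Has2, Vcan and Hapln1, and none of them was called. Has2 (chr15:56665627-56694546, minus strand), which encodes the main hyaluronan synthase of the embryonic heart, was listed at 12.4, 8.67, 7.59 and 12.8 TPM in cKO replicates 1 to 4 and at 10.8, 4.06, 9.10 and 8.94 TPM in control replicates 1 to 4. The groups overlapped, and control replicate 2 was the lowest of all. The means were 10.4 ± 2.62 and 8.22 ± 2.90 TPM (SD, n = 4), with an exact permutation p = 0.314. The log2 change was 0.34 with a 95% confidence interval from -0.22 to 0.90 (limma adjusted p = 0.461). It was 0.07 without control replicate 2.

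Versican, from Vcan (chr13:89655309-89743027, minus strand), was the most abundant proteoglycan of the set. Its level was 330.1, 380.1, 325 and 369 TPM in cKO replicates 1 to 4 and 358, 318, 330.2 and 326 TPM in the controls. The groups overlapped widely, with means of 351 ± 27.7 and 333 ± 17.5 TPM (SD, n = 4). The log2 change was 0.07 with an interval from -0.07 to 0.22 (limma adjusted p = 0.533). It ran from 0.03 without cKO replicate 2 to 0.15 after quantile normalization, and was 0.05 without cKO replicate 4. The table gives 1 value per gene, so the splice forms of versican cannot be told apart.

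Hapln1 (chr13:89540529-89611832, plus strand) encodes the link protein that fastens versican to hyaluronan. It stood at 111.2, 90.7, 88.6 and 127 TPM in cKO and at 116, 61.4, 81.5 and 80.2 TPM in control. The groups overlapped because control replicate 1 was above 3 of the cKO libraries. Its log2 change was 0.32 with an interval from -0.07 to 0.71 (limma adjusted p = 0.305, exact permutation p = 0.171). It was 0.18 without control replicate 2 and 0.48 without control replicate 1 (limma adjusted p = 0.103). For both Has2 and Hapln1 the same 3 libraries were highest, namely cKO replicates 4 and 1 and control replicate 1, and control replicate 2 was lowest.

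Adamts1 (chr16:85793827-85803113, minus strand) encodes a secreted protease that cuts versican. Its level was 54.7, 57.98, 60.5 and 55.3 TPM in cKO and 53.3, 56.4, 54.4 and 64.3 TPM in control. Every cKO value lay within the range of the controls. The log2 change was 0.003 with an interval from -0.14 to 0.15 (limma adjusted p = 0.984), the smallest among the 10 genes. Its sign turned under 5 of 18 alternatives, all of them leaving out 1 library. Vcan stood at 5.07 to 6.72 times the level of Adamts1 in control and at 5.37 to 6.68 times in cKO.

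Promoter sequence from RefSeq (GRCm38.p6) was at hand for Vcan, Hapln1, Adamts1, Postn, Fbn1 and Hspg2. The 150 bases before the gene row's start are shown for 3 genes that cover the range of responses. Adamts1 has the smallest fitted change, Fbn1 is the called gene with the smallest p of the set, and Postn has the largest fitted change. Sequences read 5′ to 3′ on the gene's strand, and capitals mark matches to the TATA box TATAAA or the GC box GGGCGG.
Adamts1, chr16:85803114-85803263, minus strand: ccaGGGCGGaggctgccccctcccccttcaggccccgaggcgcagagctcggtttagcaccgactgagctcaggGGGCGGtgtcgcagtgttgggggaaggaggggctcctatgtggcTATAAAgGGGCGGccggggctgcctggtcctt
Fbn1, chr2:125506486-125506635, minus strand: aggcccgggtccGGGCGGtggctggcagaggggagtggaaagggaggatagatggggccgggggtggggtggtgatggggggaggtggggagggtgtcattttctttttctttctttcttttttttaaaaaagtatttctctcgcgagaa
Postn, chr3:54359117-54359266, plus strand: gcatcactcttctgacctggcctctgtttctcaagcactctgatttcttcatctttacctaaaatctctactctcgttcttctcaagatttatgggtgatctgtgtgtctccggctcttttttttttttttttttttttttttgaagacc
Adamts1 holds a TATA box followed by a GC box close to the start, and GC boxes further up. Fbn1 holds 1 GC box, and its stretch next to the start is rich in T. Postn holds none of the motifs in this stretch, and a long run of T lies close to its end.

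Motifs were searched on both strands in windows of 300 bases, from 250 before to 50 after a listed start, for the 6 genes, which have 7 windows because Postn has a pair of starts. GGGCGG was found in 4 of the 6 genes (Vcan, Adamts1, Fbn1 and Hspg2), and in 35.7% of all 32851 windows. The perlecan gene Hspg2 held 5 copies. TATAAA was found in Adamts1 and, at its second listed start, in Postn, against 13.6% of all windows. CCAAT was found in Vcan and Postn, against 37.4%. TGANTCA (AP-1) and GGAATG (TEAD) were in none of the 7 windows, against 7.81% and 14.7% of all windows. No matches overlapped each other in these windows, and in Adamts1 a single base separates the TATA box from the GC box after it.

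For the glycoprotein genes Fn1, Fbn1 and Postn every cKO library was above every control library, and Fn1 and Fbn1 passed the test. Fibronectin, from Fn1 (chr1:71585473-71653280, minus strand), links matrix to integrins and guides migrating cells. It stood at 992, 833, 912 and 764 TPM in cKO replicates 1 to 4 and at 674, 581, 729 and 677 TPM in the controls. The lowest cKO library lay above the highest control, and the means were 875 ± 98.8 and 666 ± 61.7 TPM (SD, n = 4), or 132% of control. It rose by 0.39 on the log2 scale (SE 0.0915, limma adjusted p = 0.0355, exact permutation p = 0.0286, the smallest that 4 against 4 allows). The call was lost under 9 of 18 alternatives, with limma adjusted p between 0.0527 and 0.123. These included leaving out any 1 library other than cKO replicate 4, with a log2 change of 0.33 to 0.44 in those 7 fits.

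Fibrillin-1, from Fbn1 (chr2:125300594-125506485, minus strand), builds the microfibrils that carry elastin and hold latent TGF-beta. Its level was 109.6, 97.4, 110.8 and 97.3 TPM in cKO and 77.7, 75.02, 80.1 and 82.03 TPM in control. The groups were well apart relative to their spread, with means of 103.8 ± 7.45 and 78.7 ± 3.04 TPM (SD, n = 4). Fbn1 rose by 0.39 on the log2 scale (SE 0.0577, limma adjusted p = 0.00657). It passed under all 18 alternatives, with adjusted p between 0.00413 and 0.0276.

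Periostin, from Postn (chr3:54359267-54391041, plus strand), is a matricellular protein of cushion mesenchyme and a classic marker of maturing valves. It stood at 195, 132, 139.9 and 143 TPM in cKO and at 90.3, 62.9, 110.1 and 127 TPM in control. The groups did not overlap, but the lowest cKO and the highest control library lay close together. The means were 153 ± 28.8 and 97.6 ± 27.5 TPM (SD, n = 4), or 156% of control, and the exact permutation p was 0.0286. The log2 change of 0.67 was the largest of the 10 genes, with an interval from 0.23 to 1.11, and it did not pass the test over all rows (limma adjusted p = 0.0744). It passed without control replicate 4 (log2 change 0.81, limma adjusted p = 0.0485).

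**Figure D3:**
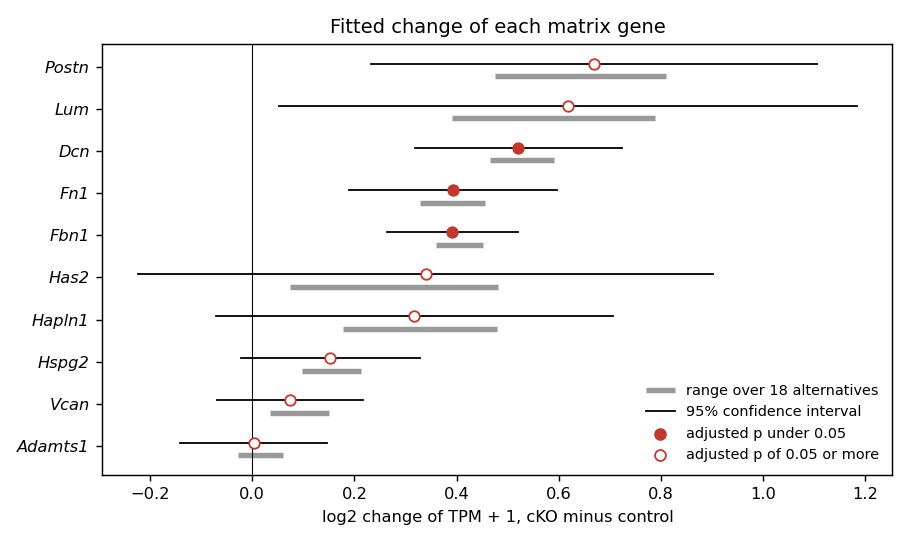
Fitted log2 change of TPM + 1 in cKO against control for each gene, with its 95% confidence interval (black) and the range over 18 alternatives (grey). Filled points mark Fbn1, Dcn and Fn1, the genes with a limma adjusted p under 0.05, while Postn and Lum have larger changes and wider intervals.

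Dcn and Lum encode decorin and lumican, small leucine-rich proteoglycans that bind collagen fibrils and set their width. Dcn (chr10:97479500-97518163, plus strand) stood at 69.8, 57.4, 69.3 and 53.6 TPM in cKO and at 47.2, 41.4, 43.7 and 40.01 TPM in control. No control library reached the lowest cKO library. The means were 62.5 ± 8.25 and 43.1 ± 3.15 TPM (SD, n = 4), or 145% of control. Dcn rose by 0.52 on the log2 scale (SE 0.0911, limma adjusted p = 0.0122), and the call was lost under 1 of 18 alternatives, testing without a filter on low values (limma adjusted p = 0.0589).

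Lum (chr10:97565501-97572703, plus strand) stood at 24.5, 12.9, 19.1 and 14.5 TPM in cKO and at 13.1, 6.39, 10.3 and 15.9 TPM in control. The groups overlapped, since control replicate 4 was above cKO replicates 2 and 4. The ratio of the means, 155% of control, was as large as that of Postn, but the spread was wide, with a coefficient of variation of 29.3% in cKO and 35.6% in control. The log2 change was 0.62 with an interval from 0.05 to 1.18 (limma adjusted p = 0.176). It ranged from 0.39 without control replicate 2 to 0.79 without control replicate 4 and passed under none of the 18 alternatives. Dcn was at 2.85 to 4.46 times the level of Lum in cKO and at 2.52 to 6.47 times in control.

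Perlecan, from Hspg2 (chr4:137468751-137570630, plus strand), is a heparan sulfate proteoglycan of basement membranes that binds growth factors. Its level was 232, 214, 246 and 224 TPM in cKO and 191, 183, 226 and 227 TPM in control. The groups overlapped, as control replicates 3 and 4 were within the cKO range. The means were 229 ± 13.6 and 207 ± 23.02 TPM (SD, n = 4). The log2 change was 0.15 with an interval from -0.02 to 0.33 (limma adjusted p = 0.273), and 0.10 without control replicate 2.

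Across the set, 1 control library stood apart. Control replicate 2 was the lowest of the 8 libraries in 8 of the 10 genes, with Adamts1 and Dcn the exceptions. In Has2 it held 4.06 TPM where the next library held 7.59 TPM, and in Postn 62.9 TPM where the next held 90.3 TPM. Its sum of cardiomyocyte markers was the highest of the 8, at 61795 TPM, and its sum of cushion mesenchyme markers the lowest, at 774 TPM. The part of these markers in the low matrix values was not tested. Without control replicate 2, Fbn1 (log2 change 0.37, limma adjusted p = 0.0245) and Dcn (0.50, limma adjusted p = 0.0389) were still called, and Fn1 was not (0.33, limma adjusted p = 0.0812). At the other end, cKO replicate 1 was the highest of the 8 in 4 genes, namely Fn1, Postn, Dcn and Lum.

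**Figure D4:**
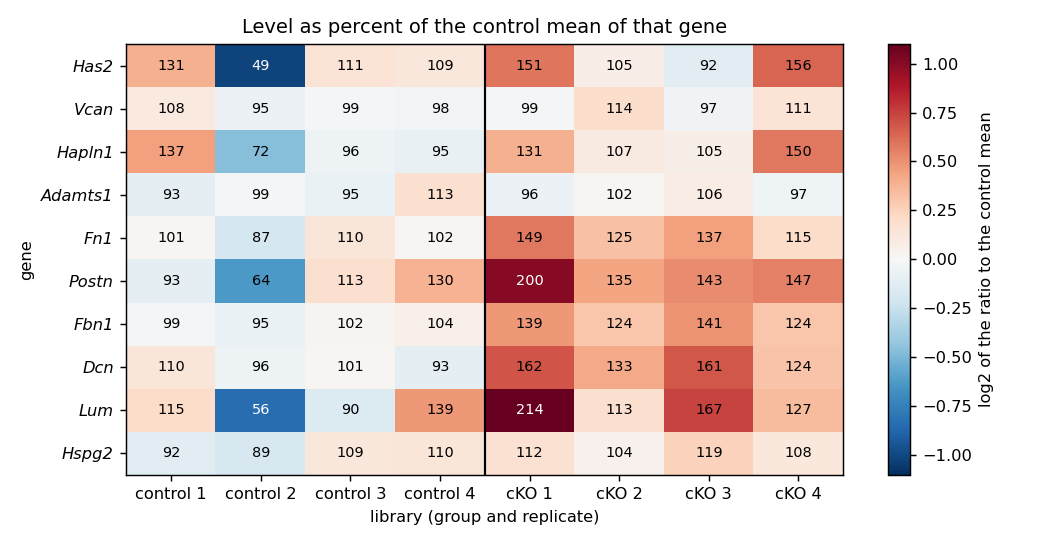
Level of each gene in each library as a percent of that gene's control mean (numbers), coloured by the log2 of that ratio, with a line between the groups. Control replicate 2 is the palest or bluest column in most rows, and Postn and Lum reach the deepest red in cKO replicate 1.

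Some of these genes are neighbours in the genome. Hapln1 and Vcan lie 43476 bp apart on chromosome 13 on opposite strands, pointing at each other, with no row of at least 1 TPM between them. They had log2 changes of 0.32 and 0.07, and Vcan stood at 2.91 to 4.19 times the level of Hapln1 in cKO and at 3.09 to 5.18 times in control. Dcn and Lum lie 47337 bp apart on chromosome 10 on the same strand, and beyond Lum on the same chromosome follow Kera and Epyc, for 2 more small leucine-rich proteoglycans. Kera was listed at 0 in 7 of 8 libraries, and Epyc at no more than 0.359 TPM. Adamts1 lies 55043 bp from Adamts5, which encodes another versican-cutting protease. Adamts5 had a mean of 4.36 ± 0.188 TPM in cKO and 3.81 ± 0.568 TPM in control (SD, n = 4), a log2 change of 0.16 (limma adjusted p = 0.348). For 5 of the 10 genes another row overlaps, antisense rows for Has2, Vcan, Hapln1 and Postn and a microRNA row on the same strand for Hspg2, each with a mean of at most 2.05 TPM. Use of strand in counting is not given in the sources used here.

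Other genes of the same matrix systems were then examined on lists by function. Over all tested rows 6.40% were called, 2.16% higher and 4.23% lower. Of 13 tested genes for hyaluronan synthesis, binding and turnover, 0 were called higher and 1 lower, near the share of all rows. The median log2 change was 0.05, and it ran from 0.03 without control replicate 3 to 0.12 with a mean of at least 5 TPM. The called gene was Hmmr, which encodes a hyaluronan-binding protein that also works at the mitotic spindle. It fell to 34.3 ± 3.65 TPM in cKO against 46.2 ± 2.50 TPM in control (SD, n = 4), with a log2 change of -0.42 (limma adjusted p = 0.0122), and the call was lost without a filter on low values (limma adjusted p = 0.0524). The synthases Has1 (log2 change 0.26, limma adjusted p = 0.116) and Has3 (-0.01, limma adjusted p = 0.975) and the receptor Cd44 (0.14, limma adjusted p = 0.14) did not pass. Has1 had a mean of 8.22 TPM over the 8 libraries, close to the 9.29 TPM of Has2. On the list of hyalectans and their proteases the 7 tested genes were 6 ADAMTS proteases and the protease inhibitor Timp3, because the hyalectan genes Acan, Bcan and Ncan did not pass the filter on low values. Of the 7, 0 were called higher and 1 lower. Their median log2 change of 0.12 was -0.05 without control replicate 2, -0.05 without the filter on low values, 0.03 without control replicate 1, 0.03 without cKO replicate 3, 0.04 without cKO replicate 4 and 0.02 with array weights. The called gene was Adamts9, a protease of cardiac matrix, at 27.2 to 29.9 TPM in cKO and 31.2 to 33.8 TPM in control (log2 change -0.20, limma adjusted p = 0.049), and it lost its call under 14 of 18 alternatives.

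Apart from Dcn and Lum, 6 small leucine-rich proteoglycan genes were tested, and 5 of them had a mean of at least 1 TPM in each group. Of these 5, 1 was called, higher in cKO, against 2.16% of all tested rows called higher. Their median log2 change was 0.34. With the sixth, Podn, it was 0.36, and without the filter on low values it was 0.16 over the whole list. Podn, which encodes podocan, was listed at 2.50, 1.46, 3.18 and 1.91 TPM in cKO and at 0.295, 0.293, 0.410 and 0.262 TPM in control. It passed the filter on low values only through the cKO libraries, so its difference is given as a description. The log2 change was 1.28, 2.47 with a pseudocount of 0.1 and 0.44 with one of 5. Ogn, which encodes osteoglycin, stood at 8.07, 6.15, 10.5 and 6.70 TPM in cKO and at 2.88, 3.64, 3.58 and 3.65 TPM in control. Its log2 change was 0.98 (limma adjusted p = 0.00619), and it was 0.60 with a pseudocount of 5. The row overlaps Cenpp on the opposite strand, which had a mean of 15.1 TPM, so the level of Ogn is less certain. Bgn, for biglycan, had a log2 change of 0.34 and did not pass (limma adjusted p = 0.0837).

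The partners of Fbn1 in microfibrils and elastic fibres gave 3 genes called higher and 1 lower among 17 tested. The shares over all tested rows were 2.16% and 4.23%. The median log2 change of the list was 0.24 (0.23 without Fbln5, which had a mean of at least 1 TPM in a single group). Fbln2, for fibulin-2 of cushion and valve matrix, rose to 137 ± 12.7 TPM in cKO against 99.6 ± 11.2 TPM in control (SD, n = 4), by 0.46 on the log2 scale (limma adjusted p = 0.0195). Ltbp1, which binds latent TGF-beta, rose by 0.24 (limma adjusted p = 0.0328), and Mfap2, a microfibril protein named here after its value was seen, by 0.46 (limma adjusted p = 0.0385). Fbln1, for fibulin-1, fell to 122.7 ± 5.81 TPM in cKO against 149.4 ± 4.39 TPM in control (SD, n = 4), with a log2 change of -0.28 (limma adjusted p = 0.0103). Its 4 cKO libraries (116 to 130.4 TPM) lay below its 4 control libraries (144.6 to 154 TPM), and it passed under all 18 alternatives. Ltbp1 lost its call under 10 of them and Mfap2 under 9. Each time a single library was left out, the number of called genes on this list was 1 to 5, and it was 2 without cKO replicates 1, 2 or 3 or control replicate 2 and 1 without control replicate 1. Elastin (Eln, 0.69, limma adjusted p = 0.0845) did not pass.

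Among 17 tested matricellular glycoprotein genes, the group to which periostin belongs, 4 were called higher and 1 lower, with a median log2 change of 0.39. It was 0.37 without Tnxb, which had a mean of at least 1 TPM in a single group, and 0.25 with a pseudocount of 5. By comparison, 2.16% of the 15541 tested rows were called in the upward direction and 4.23% in the downward direction. Thbs1, for thrombospondin-1, which can activate latent TGF-beta, stood at 70.5 to 96.5 TPM in cKO and 44.1 to 64.4 TPM in control (log2 change 0.58, limma adjusted p = 0.0274). Thbs3 stood at 16.0 to 19.8 TPM in cKO and 11.7 to 15.4 TPM in control (0.49, limma adjusted p = 0.0192). Sparc, a collagen-binding protein, rose to 1016 ± 52.2 TPM in cKO against 856 ± 39.4 TPM in control (SD, n = 4), by 0.25 on the log2 scale (limma adjusted p = 0.0331). The other 2 called genes were named after their values were seen: Matn2 rose (0.43, limma adjusted p = 0.0398) and Thbs4 fell (-0.38, limma adjusted p = 0.0355). The calls on this list were sensitive to single libraries. The count of 5 was 1 without cKO replicates 1, 2 or 3 or control replicates 1 or 3, and 2 without control replicates 2 or 4.

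Of 11 tested genes on the list of fibronectin receptors, mostly integrin subunits, 2 were called higher and 1 lower. Over all tested rows the shares were 2.16% and 4.23%. The list's median log2 change was 0.11. The median was 0.05 without control replicate 2 and 0.05 without cKO replicate 3. Itga4, the alpha-4 integrin subunit needed for the epicardium, stood at 13.9 to 14.8 TPM in cKO and 7.13 to 10.9 TPM in control. Its log2 change was 0.63 (limma adjusted p = 0.00915), and it passed under all 18 alternatives. Itga8 rose by 0.55 (limma adjusted p = 0.0327) and lost its call under 7 of 18 alternatives. Itgb3, the beta-3 subunit also abundant in megakaryocytes, fell to 6.66 ± 0.827 TPM in cKO against 10.3 ± 1.36 TPM in control (SD, n = 4), with a log2 change of -0.56 (limma adjusted p = 0.0158). Its call was lost under 2 of 18 alternatives, without a filter on low values (limma adjusted p = 0.0622) and with a replicate block (0.0573). The main fibronectin receptor subunits Itga5 (0.01, limma adjusted p = 0.914) and Itgb1 (0.03, limma adjusted p = 0.713) did not pass.

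Basement membrane and sugar chain genes gave no call in the main fit, and the basement membrane list held 1 called gene under 5 of 18 alternatives. Among 15 laminin, nidogen and other basement membrane genes 0 were called and 4 had an unadjusted p under 0.05 in limma, where 23.7% of all tested rows did. Their median log2 change of 0.11 ran from 0.01 with a mean of at least 5 TPM to 0.15 without control replicate 3, and it was 0.06 without cKO replicate 2, 0.06 without control replicate 1 and 0.07 without control replicate 4. Lamc1, the most abundant of them, held 222 ± 10.5 TPM in cKO and 226 ± 7.85 TPM in control (SD, n = 4), a log2 change of -0.02 (limma adjusted p = 0.809) whose sign turned under 3 scalings and without cKO replicate 1. Nid1, the basement membrane gene with the smallest p, stood at 135 to 152 TPM in cKO and 113 to 131 TPM in control. Its log2 change was 0.23 (limma adjusted p = 0.0555). Among 27 enzymes that build chondroitin, dermatan and heparan sulfate chains, 0 were called and 7 had an unadjusted p under 0.05 in limma, again near the 23.7% of all rows. Their median of 0.05 ran from 0.03 without cKO replicate 3 to 0.09 after rescaling without mitochondrial and globin rows, and it was 0.03 without control replicate 2. B3gat3, which completes the linker of these chains to core proteins and was the most abundant, held 61.2 ± 6.25 TPM in cKO and 69.8 ± 1.85 TPM in control (SD, n = 4, log2 change -0.19, limma adjusted p = 0.129).

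**Figure D5:**
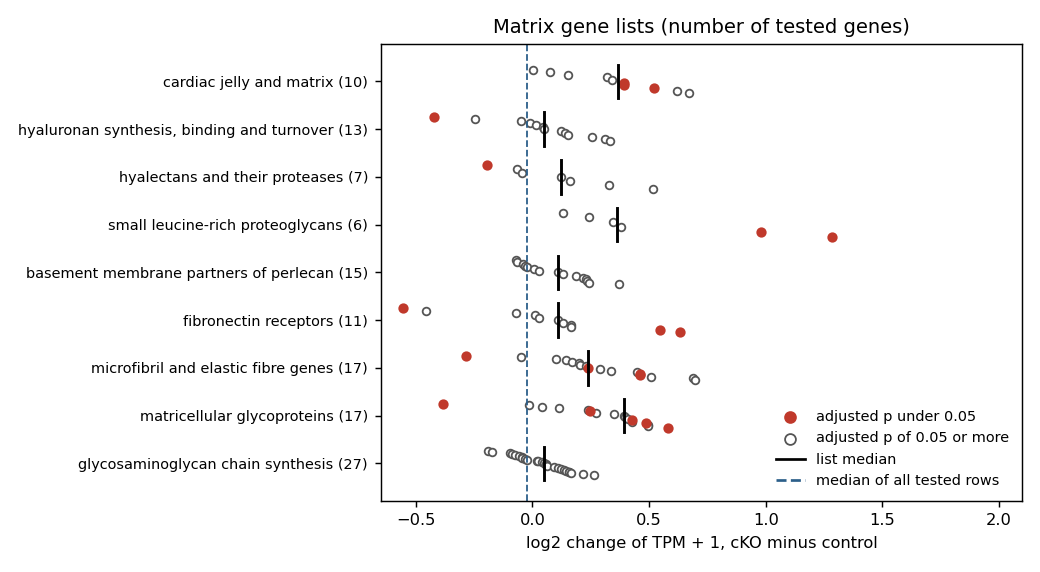
Fitted log2 change of TPM + 1 in cKO against control for each tested gene of the 10-gene set and of 8 lists of related matrix genes, with red points for limma adjusted p under 0.05, a black line at each list's median and a dashed line at the median of all tested rows (-0.02). The medians of the matricellular list (0.39), the 10-gene set (0.37) and the small leucine-rich proteoglycan list (0.36) lie furthest to the right. The chain synthesis list (0.05) and the hyaluronan list (0.05) lie close to the dashed line. Podn, drawn in red, and Tnxb had a mean of at least 1 TPM in a single group. Without them the proteoglycan and matricellular medians were 0.34 and 0.37. Without the filter on low values the proteoglycan median was 0.16, below the 0.23 of the microfibril list.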

How the data were processed

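The authors deposited 1 table of TPM values with 52778 rows and 8 columns that each sum to 1000000. Per the submitters' processing notes the build is GRCm38 and the tools include Trim Galore 0.6.7, HISAT2 2.2.1, StringTie 2.2.1 and featureCounts, and which of them gave the TPM is not given in the sources used here. Columns were matched to samples by group and replicate number in the titles. All 8 libraries carry 1 batch label. All 10 genes had the coordinates of the RefSeq gene table of GRCm38.p6.

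Values were analysed as log2(TPM + 1) with limma 3.58.1 in R 4.3.3 (lmFit, eBayes with trend, two-sided, group as the only term), over rows with a mean of at least 1 TPM, with Benjamini-Hochberg adjustment. Fold changes on this scale understate changes of low genes. Single genes also had an exact two-sided permutation test over 70 assignments. The procedure was tested on simulated data with known log2 changes of 1.5 and 0.75 in either direction. It recovered 99% and 84% of these in turn, and 5.18% of its calls were false. Changes smaller than 0.75, such as those fitted for the 10 genes, were not simulated. The 10 genes and the lists were chosen with earlier results of these data known. From each list up to 3 called genes with the smallest p were named, or, with none called, the most abundant gene, and listed neighbours of the 10 genes. Other named genes stand outside this rule. Among them are Has1, Has3, Cd44, Bgn, Eln, Itga5, Itgb1 and Nid1, and the markers Nkx2-5, Pdgfra, Col1a2, Col3a1 and Prrx2. Alternatives were a pseudocount of 0.1 or 5, no filter or a mean of at least 5 TPM, quantile, median-ratio and non-mitochondrial, non-globin scaling, eBayes without a trend, array weights, a replicate block and leaving out each library. A planned comparison of the Dcn and Lum proteins was not run.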

Additional observations from a re-analysis of the deposited data

Results flagged for a closer look

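In each group of 4 libraries the gap between an extreme library and its nearest neighbour was compared with Dixon's 95% critical value, and 5 of 78 groups exceeded it, where chance gives about 1 in 20. The lowest control library of the summed 10 matrix genes (control replicate 2, 1390 TPM, a gap of 0.848 of the range), of the cushion mesenchyme markers (control replicate 2, 774 TPM) and of the neuronal markers (control replicate 2, 10.01 TPM) lay apart from the other controls. Control replicate 1 was apart in Ogn at 2.88 TPM, and cKO replicate 4 in Thbs3 at 16.0 TPM.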

How the results depend on the processing

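Of the 10 matrix genes, Fbn1 was called under all 18 alternatives, Dcn under 17 and Fn1 under 9, and 9 of the 10 kept a higher level in cKO throughout. Adamts1 turned below 0 without cKO replicates 2 or 3 or control replicates 1, 2 or 3, and its log2 change ran from -0.0288 to 0.0606 over the fits that left out a library. Lamc1 turned to 0.0293 with quantile normalization, 0.0031 with median-ratio scaling and 0.0111 after rescaling without mitochondrial and globin rows, and ran from -0.0459 to 0.00638 (without cKO replicate 1) when a library was left out.

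Without a filter on low values, which tests more rows, 347 rows and 1 of the 10 genes were called, and the called genes numbered 0 on the hyaluronan, versican protease and matricellular lists and 1 on the fibronectin receptor and microfibril lists. Without a trend 609 rows were called, with 2 on the microfibril and 2 on the matricellular list. With a mean of at least 5 TPM, which leaves out Podn, 1 small leucine-rich proteoglycan gene was called, against 2 counting Podn. The versican protease list (hyalectans and their proteases) had 0 called genes with array weights, without a trend and under the 3 other scalings. The basement membrane list had 1 with a mean of at least 5 TPM and under the same scalings. The matricellular list had 3 after quantile normalization. Leaving out single libraries gave 390 to 938 called rows, 0 to 1 called genes on the versican protease list, 0 to 1 basement membrane genes, 1 to 5 microfibril genes and 1 to 6 matricellular genes. The cause was not tested.

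Replicate numbers were not taken as pairs, and whether same-numbered libraries share a litter is not known here. Deviations of same-numbered libraries correlated at -0.0107, 0.0674, 0.0576 and -0.0891. Those of differently numbered libraries correlated at -0.128 to 0.122. Such correlations cannot decide on a pairing, because they hold no information on litters or handling. With a replicate block 420 rows were called, the 3 calls among the 10 genes were kept, and 1 fibronectin receptor, 2 microfibril and 2 matricellular genes were called. The ratio of summed cushion mesenchyme markers, 1.19, was 1.06 without the collagens, an alternative chosen after seeing the data. Depth is unknown, so genes near 1 TPM such as Podn carry an unstated counting error.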
